A study of Homo sapiens with 16 samples.

Results

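The genes of the cellular response to low oxygen and of glycolysis, with the carbonic anhydrase gene CA12 among them, were followed in Ccd18-Co, an established human colon fibroblast line. The set was a fixed list of 35 gene symbols, and all 35 were found among the 40663 symbols of the deposited table of estimated counts. The rule that defines the list uses no measured value, but the members were chosen with earlier results of these data known. Bulk RNA-seq had been made from 16 samples in 4 groups of 4. The unstimulated group carries DMSO in its sample titles but "none" in the column names of the count table, so whether these cells received DMSO is not settled, and comparisons with them may also differ in vehicle. The other groups first went through 3 pulses of cytokines, each lasting 72 h without serum and followed by 96 h in full medium. The mix held 10 ng/ml of each of TNF, OSM and IL-17A, with IL-1B at only 0.1 ng/ml. The cells then rested for 1 week and were given DMSO (the vehicle group), 250 nM belinostat or 10 µM GSKJ4 for 5 days, and RNA was taken 2 weeks later. Belinostat inhibits histone deacetylases, and GSKJ4, written GSK-J4 from here on, inhibits the demethylases that remove methyl groups from lysine 27 of histone H3. The labels name no change of oxygen, the cells are of a single line, and the labels do not say whether the 4 samples of a group came from separate cultures, although the study calls its RNA-seq replicates biological. The p-values measure the spread between these samples, part of which may be technical. The study's text gives fewer RNA-seq replicates per group than the labels and allows for the exclusion of outlying samples, whereas all labelled libraries were used here. Concentrations are those of the labels, and the study's text gives others for belinostat throughout, for epigenetic compounds in another assay and for IL-1B in its methods, so the doses behind these libraries are not settled.

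Cells that run short of oxygen stabilise the alpha subunits of the hypoxia-inducible factors (HIF), which otherwise are hydroxylated by the EGLN enzymes, bound by VHL and degraded. The stable factor pairs with ARNT and raises genes for glucose uptake, glycolysis, lactate formation, blood vessel growth, collagen modification and acid handling. Carbonic anhydrases turn carbon dioxide and water into bicarbonate and a proton, and CA12 and CA9 encode forms that sit in the cell membrane with the active site outside. Inflammatory signals can also raise the transcript of HIF1A without low oxygen. Fibroblasts that lay down matrix also use the prolyl and lysyl hydroxylases to modify new collagen.

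The libraries held 14.4 to 19.5 M estimated counts. A normalized count is an estimated count divided by the library's size factor, and values below are normalized counts unless said otherwise, in the order of the replicate numbers (1 to 4 unstimulated, 13 to 16 vehicle, 17 to 20 belinostat, 21 to 24 GSK-J4). A gene was called when DESeq2's Wald test over all 16 libraries gave a Benjamini-Hochberg adjusted p under 0.05. The cells carried the markers of fibroblasts: the summed level of 6 fibroblast markers was 275211 to 380115 in every library. Of 5 epithelial markers, KRT20 was at 0 in every library and 3 of 5 stayed under 10, and KRT8 made up most of the sum at 347 to 504. Of 5 immune markers 4 stayed under 10 in every library, CD3E was at 0, and CD14 was at 30.2 to 247. Belinostat replicate 17 stood apart from the other belinostat libraries, and several belinostat results that rest on it are given with and without it. It also entered the estimate of spread shared by all groups. Comparisons that do not involve belinostat were free of it only in fits of the compared groups alone. In bulk RNA, fewer cells of a type and less RNA per cell cannot be told apart.

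The members spanned a wide range of levels. Over the 16 libraries the mean level was at least 1000 for 24 members, 8 lay between 100 and 1000, and 3 were under 20, namely CA9, EGLN3 and ANKRD37. Over the 32 members with a mean of at least 100, the highest group mean was under 1.2 times the lowest in 19, under 1.3 times in 27 and under 1.5 times in 30. The ratio was 1.01 for BNIP3L, which had the least, and 4.78 for CA12, which had the most. ALDOC followed at 1.69 times. By role, set beside 1.74%, 6.26% and 1.92% of all tested genes called in the same comparisons, of 9 genes of upper glycolysis 1 was called with vehicle against unstimulated cells, 2 with belinostat against vehicle and 0 with GSK-J4 against vehicle, and of 7 genes of lower glycolysis 0, 1 and 0 were called. Of 3 genes for collagen hydroxylases the counts were 0, 1 and 0. Between belinostat and GSK-J4, 4 of 9, 2 of 7 and 2 of 3 genes of these roles were called, beside 12.2% of all tested genes. Most genes of these roles had a mean of at least 1000, namely 8 of 9, 6 of 7 and 3 of 3. Of all tested genes at that level, 2.33%, 10.5%, 3.38% and 20.8% were called in the 4 comparisons in that order.

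CA12 was the member with the widest range and also the least even one within groups. The gene lies on the minus strand at chr15:63321378-63381846 (GENCODE release 44, GRCh38). Its level was 130.3, 91.1, 82.6 and 61.5 in the unstimulated libraries, 289, 208, 209 and 352 with vehicle, 619, 175, 206 and 138 with belinostat and 389.5, 597, 415 and 345 with GSK-J4. The unstimulated libraries were all below the 12 libraries of cytokine-pulsed cells, while the other 3 groups overlapped one another. The group means were 91.4 ± 28.8, 265 ± 69.8, 284 ± 225 and 436 ± 111 (SD, n = 4). The coefficient of variation was 31.5%, 26.4%, 79.0% and 25.4% in that order, the highest of the 32 members with a mean of at least 100 in each group, beside group medians of 5.79%, 4.16%, 7.72% and 4.26%. A single library set the belinostat figure, since replicate 17 was at 619 and the other 3 had a mean of 173 ± 34.0 (SD, n = 3).

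CA12 rose after the cytokine mix with vehicle, by a log2 fold change of 1.53 (SE 0.43, adjusted p = 0.0274 by DESeq2), and was higher than in unstimulated cells after GSK-J4 by 2.26 (SE 0.43, adjusted p = 1.62e-05 by DESeq2) and after belinostat by 1.64 (SE 0.43, adjusted p = 0.00298 by DESeq2). The first of these calls was the least firm in fits that held all groups. Belinostat replicate 17 entered the shared spread of CA12 in those fits, and its part in the adjusted p values was not tested. A fit of the vehicle and unstimulated groups alone, which leaves it out, kept the call. Of 13 alternative fits 6 kept it, the DESeq2 adjusted p ran from 1.53e-08 to 0.179, and edgeR's quasi-likelihood test gave an adjusted p of 0.0866. Leaving out any of unstimulated replicates 2, 3 and 4 or of vehicle replicates 13, 15 and 16 ended it, with log2 fold changes from 1.36 to 1.63. The calls for the belinostat and GSK-J4 groups against unstimulated cells held in 13 of 13 alternative fits each, although the belinostat value was 0.92 (adjusted p = 0.00409 by DESeq2) without replicate 17. Against vehicle, neither compound gave a call for CA12. For belinostat the log2 fold change was 0.11 (SE 0.43, adjusted p = 0.956 by DESeq2), with a 95% interval of -0.73 to 0.94, and without replicate 17 it turned to -0.61 (adjusted p = 0.1 by DESeq2), so that its direction rested on that library. For GSK-J4 it was 0.72 (SE 0.43, adjusted p = 0.618 by DESeq2), with an interval of -0.11 to 1.56, and in a fit of these 2 groups alone the DESeq2 adjusted p was 0.00604. Between the compounds the log2 fold change of belinostat over GSK-J4 was -0.62 (SE 0.43, adjusted p = 0.43 by DESeq2) with all libraries, and -1.34 (adjusted p = 7.56e-07 by DESeq2) without replicate 17. These comparisons share the unstimulated, the vehicle or the compound libraries and are not independent of one another.

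The 250 bases before the RefSeq start of CA12 are shown because CA12 is the member with the largest difference. RefSeq places them on the minus strand of GRCh38.p14, and they are read 5′ to 3′ along the gene. The hypoxia-inducible factors bind a core of ACGTG or GCGTG, and the capitals mark the match to that core on the opposite strand, whose first base is at position -234 from the start (CACGTG holds the core on both strands and counts at 2 positions):
CA12, chr15:63381847-63382096, minus strand: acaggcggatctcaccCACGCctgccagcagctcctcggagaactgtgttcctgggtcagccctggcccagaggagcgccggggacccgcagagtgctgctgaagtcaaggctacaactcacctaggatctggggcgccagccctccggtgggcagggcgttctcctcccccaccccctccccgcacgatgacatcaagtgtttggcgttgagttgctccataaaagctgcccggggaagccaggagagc
A match of these letters is a description of the sequence and was not tested as a binding site. Another match in CA12 lies at 39 bases after the start. Across the genes, at least 1 match on either strand was found in 37 of 55 windows of member genes (250 bases before to 50 after a RefSeq start), or 67.3%, and in 28 of the 31 member genes with a window. The same letters were found in 48.4% of all 35116 RefSeq windows, and among the 17823 windows of genes tested in the vehicle comparison 59.2% held them. Those shares are by window. Some genes have several windows, and no share by gene was computed beyond the members, so the count by gene has no background. VEGFA, SLC2A3, NDRG1 and BNIP3L had no window.

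CA9, the carbonic anhydrase most often used as a marker of low oxygen, was close to absent. It was at 0 in 13 of the 16 libraries, at 0.888 and 1.95 in unstimulated replicates 3 and 4, and at 1.05 in GSK-J4 replicate 24, and it was not tested in any comparison. EGLN3, an oxygen-sensing prolyl hydroxylase that is itself raised by HIF, was at 2.00 to 16.8, and ANKRD37, another gene raised by low oxygen, at 7.99 to 22.2. At these levels the test has little power, and no change of CA9 was detectable at this depth.

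**Figure D1:**
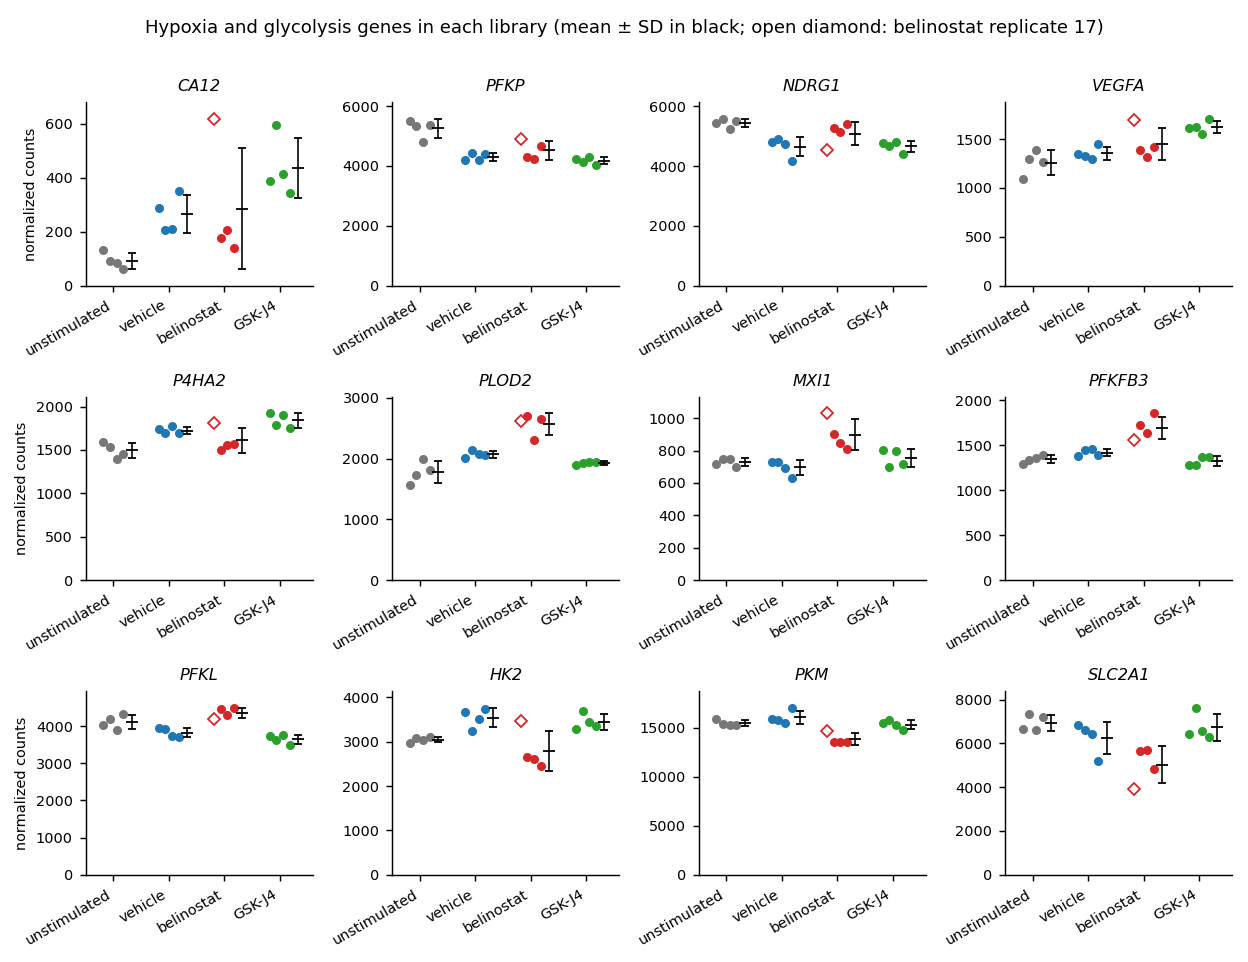
Normalized counts of 12 members in each of the 16 libraries, by group on the x axis, with the group mean and SD in black and belinostat replicate 17 as an open diamond. CA12 was at most 130.3 in the unstimulated libraries and at least 138 in the other 12, and replicate 17 was at 619.

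The first comparison, of vehicle-treated pulsed cells with unstimulated cells, asks which of these genes still differed weeks after the last cytokine pulse. Of 34 members tested, CA12 rose and NDRG1 and PFKP fell. The share of all 16240 tested genes that were called was 1.74%, and of genes with a mean of at least 1000 it was 2.33%, beside 2 of the 24 members at that level. The median log2 fold change was 0.01 over the members and -0.00 over all tested genes. By edgeR 1 member was called, PFKP, and 1 was called by DESeq2 when any of the unstimulated libraries 2 and 4 and the vehicle libraries 15 and 16 was left out. Of the 6 fibroblast markers LUM was called beside these genes, at 0.36 (SE 0.10, adjusted p = 0.0221 by DESeq2), while edgeR called 0 of them, and the summed level of the list was 299716 to 331291 in unstimulated cells and 319884 to 339540 with vehicle. The immune list summed to 39.9 to 108 and 82.0 to 192, the epithelial list to 378 to 417 and 355 to 388, and the endothelial list to 28 to 41.7 and 19.6 to 29.5. The part of these markers in the member values was not tested.

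PFKP encodes the platelet form of phosphofructokinase, which commits glucose to glycolysis, and lies on the plus strand at chr10:3066333-3137718. It was at 5520.1, 5339.8, 4791 and 5384 in unstimulated cells, 4184, 4444, 4203 and 4408 with vehicle, 4895, 4315, 4219 and 4659 with belinostat and 4226, 4149, 4289 and 4024 with GSK-J4. Each vehicle and each GSK-J4 library was below each unstimulated one, and belinostat replicate 17 alone of the pulsed libraries reached into the unstimulated range. PFKP fell by 0.29 (SE 0.06, adjusted p = 5.71e-05 by DESeq2) on the log2 scale with vehicle, and its log2 fold change against unstimulated cells was -0.22 (SE 0.06, adjusted p = 0.0019 by DESeq2) with belinostat and -0.33 (SE 0.06, adjusted p = 2.59e-07 by DESeq2) with GSK-J4. All 3 calls held in 13 of 13 alternative fits each.

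NDRG1, a stress-induced gene that is among the common targets of HIF, was at 5441, 5568, 5238 and 5508 in unstimulated cells, 4790.4, 4914, 4730.0 and 4182 with vehicle, 4525, 5271, 5146 and 5401 with belinostat and 4772, 4666, 4798 and 4406 with GSK-J4. The unstimulated libraries were above all vehicle and all GSK-J4 libraries, and the belinostat libraries overlapped them. NDRG1 fell by 0.22 (SE 0.06, adjusted p = 0.0181 by DESeq2) with vehicle, a call that 8 of 13 alternative fits kept and edgeR did not (adjusted p = 0.0757). Leaving out unstimulated replicate 2 or 4 or vehicle replicate 15 or 16 also ended it, with DESeq2 adjusted p values of 0.0529 to 0.125. Against unstimulated cells it had -0.22 (SE 0.06, adjusted p = 0.00782 by DESeq2) with GSK-J4, which became -0.20 (adjusted p = 0.0533 by DESeq2) without GSK-J4 replicate 24, and -0.10 (SE 0.06, adjusted p = 0.373 by DESeq2) with belinostat.

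None of the 3 genes for collagen hydroxylases was called in this comparison. P4HA1 and P4HA2 encode alpha subunits of the enzyme that hydroxylates collagen prolines, and PLOD2 encodes the lysyl hydroxylase that prepares collagen ends for cross-linking. The log2 fold changes with vehicle were 0.17 (SE 0.06, adjusted p = 0.163 by DESeq2) for P4HA1, 0.21 (SE 0.06, adjusted p = 0.0536 by DESeq2) for P4HA2 and 0.22 (SE 0.07, adjusted p = 0.0525 by DESeq2) for PLOD2. All 3 had an unadjusted p under 0.05, as did 8 members in all. HK2, the inducible hexokinase, had 0.22 (SE 0.09, adjusted p = 0.272 by DESeq2), and its libraries did not overlap.

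**Figure D2:**
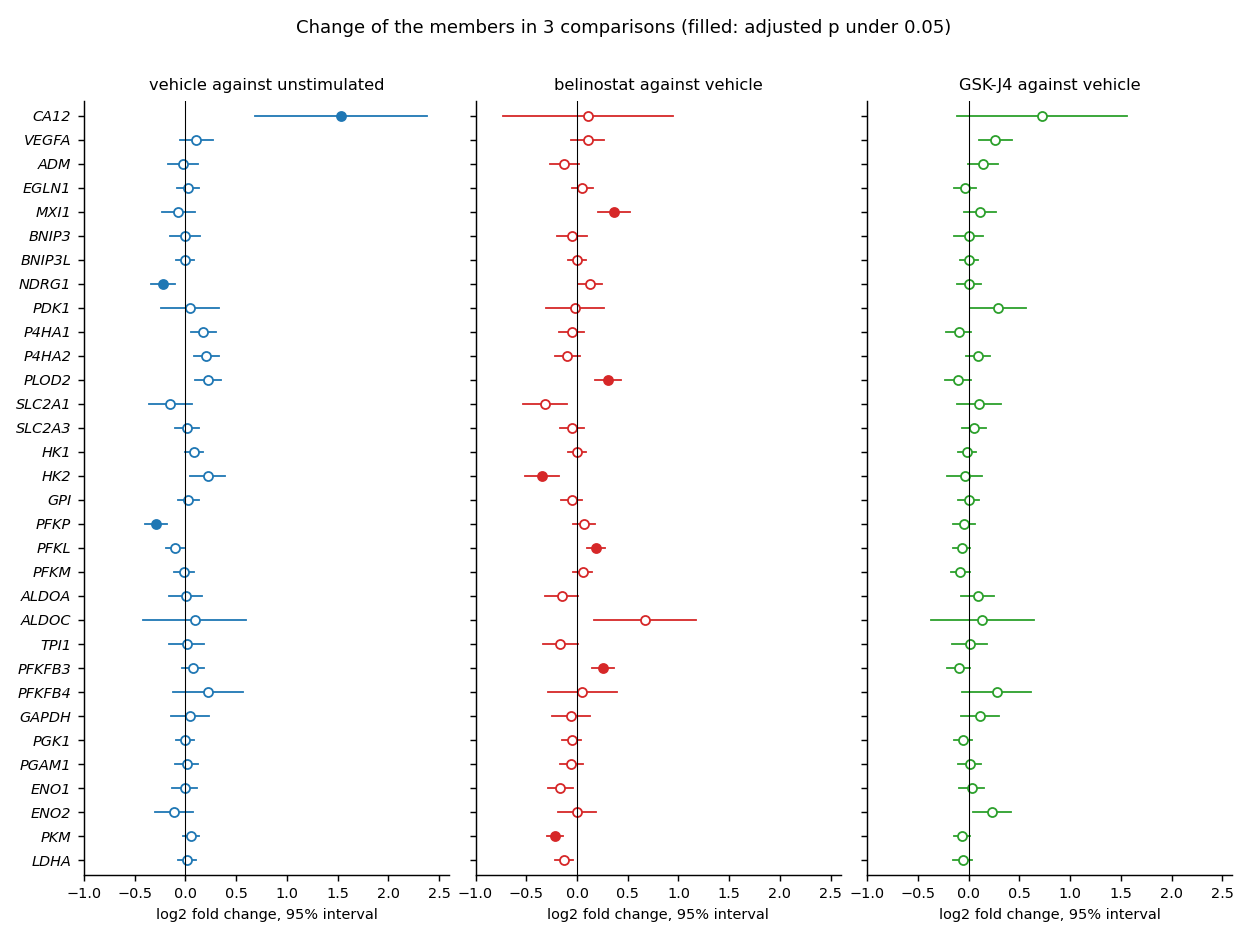
Log2 fold change (x axis, with its 95% interval) of the 32 members with a mean of at least 100 normalized counts (y axis) in 3 comparisons, with filled points for an adjusted p under 0.05. There were 3 filled points for vehicle against unstimulated, 6 for belinostat against vehicle and 0 for GSK-J4 against vehicle.

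A few of these genes differed between belinostat and vehicle, in both directions. Of 33 members tested against vehicle, 6 were called: MXI1, PLOD2, PFKFB3 and PFKL rose, and HK2 and PKM fell. By edgeR 6 members were called, and each of these 6 calls held in 13 of 13 alternative fits. Of all 14209 tested genes 6.26% were called, and of genes with a mean of at least 1000 it was 10.5%, beside 5 of the 24 members at that level. The members' median log2 fold change was -0.02, and that of all tested genes 0.00.

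PLOD2 lies on the minus strand at chr3:146035139-146163725. Its level was 1573, 1734, 1995 and 1812 in unstimulated cells, 2008, 2145, 2083 and 2051 with vehicle, 2612, 2696, 2303 and 2651 with belinostat and 1891, 1930.1, 1945 and 1948 with GSK-J4. The 4 belinostat libraries were above all other libraries. PLOD2 rose with belinostat by a log2 fold change of 0.31 (SE 0.07, adjusted p = 0.000162 by DESeq2) against vehicle and 0.53 (SE 0.07, adjusted p = 3.98e-13 by DESeq2) against unstimulated cells.

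MXI1, at chr10:110207605-110287365, encodes a partner of MAX that represses genes activated by MYC. It was at 719, 751, 750.1 and 701 in unstimulated cells, 732, 730.2, 690.2 and 633 with vehicle, 1030.1, 901, 849 and 811 with belinostat and 801, 697, 799.5 and 715 with GSK-J4. Here too the belinostat libraries were above all others, and replicate 17 was the highest of them. The log2 fold change against vehicle was 0.37 (SE 0.08, adjusted p = 0.000243 by DESeq2), and 0.29 (adjusted p = 0.0019 by DESeq2) without replicate 17.

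PFKFB3, at chr10:6144934-6254644, encodes the enzyme that makes the strongest activator of phosphofructokinase, and its transcript is raised by low oxygen in many cells. It was at 1293, 1339, 1360.0 and 1388 in unstimulated cells, 1373, 1441, 1457 and 1395 with vehicle, 1562, 1720.5, 1636 and 1852 with belinostat and 1277, 1276, 1372 and 1369 with GSK-J4. No belinostat library overlapped any other group. PFKFB3 rose by 0.26 (SE 0.06, adjusted p = 0.000194 by DESeq2) against vehicle. Its relative PFKFB4 was low, at 82.0 to 153, and its log2 fold change against vehicle was 0.05 (SE 0.18, adjusted p = 0.944 by DESeq2).

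PFKL, at chr21:44300051-44327376, encodes the liver form of phosphofructokinase. It was at 4029, 4192, 3887 and 4331 in unstimulated cells, 3942, 3913, 3731 and 3716 with vehicle, 4194, 4454, 4303 and 4475 with belinostat and 3723, 3613, 3768 and 3483 with GSK-J4. The belinostat libraries were above all vehicle and all GSK-J4 libraries and overlapped the unstimulated ones, and the rise against vehicle was small, at 0.19 (SE 0.04, adjusted p = 0.000698 by DESeq2) on the log2 scale.

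HK2 encodes the hexokinase that traps glucose in the cell as its phosphate, and lies at chr2:74834127-74893359. It was at 2972, 3089, 3037 and 3098 in unstimulated cells, 3681, 3252, 3509 and 3739 with vehicle, 3462, 2657, 2611 and 2453 with belinostat and 3297, 3698, 3444 and 3356 with GSK-J4. In 3 belinostat libraries HK2 was below every library of every other group, and replicate 17 lay within the vehicle range. HK2 fell by 0.34 (SE 0.09, adjusted p = 0.00249 by DESeq2) against vehicle with all libraries and by 0.46 (adjusted p = 6.42e-14 by DESeq2) without replicate 17.

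PKM, at chr15:72199029-72231819, encodes the pyruvate kinase of fibroblasts, and gene-level values do not separate its splice forms. It was at 15964, 15439.7, 15327 and 15338 in unstimulated cells, 15942, 15801, 15491 and 17046 with vehicle, 14738, 13514, 13578 and 13531 with belinostat and 15475, 15837, 15268 and 14745 with GSK-J4. The belinostat libraries were below all others, replicate 17 being the highest of them, although PKM fell by only 0.22 (SE 0.04, adjusted p = 8.16e-06 by DESeq2) against vehicle.

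For the members called with belinostat whose match to the HIF core nearest the start lies before it, that match is shown with 12 bases on each side, 5′ to 3′ along the gene, from the RefSeq window nearest the annotated gene start (GRCh38.p14), with the match in capitals:
HK2, chr2:74834067-74834095, plus strand, first base at -48: aatgggcgtgcgCACGTcactgatccgga
PFKFB3, chr10:6144741-6144769, plus strand, first base at -168: ggcggcccggccCACGCcccggcttcccc
PFKL, chr21:44299877-44299905, plus strand, first base at -164: tgctcagggcccGCGTGacattgcacagg
PLOD2, chr3:146161314-146161342, minus strand, first base at -146: caaacagtccagACGTGgggcccaggagg
HK2 fell while the other 3 rose. The RefSeq start used for PLOD2 lies inside the GENCODE gene. In MXI1 no match lay in this window, and in PKM the single match was at 12 bases after the start and is not printed.

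Belinostat replicate 17 bears on many of these values. Among the 32 members with a mean of at least 100 it was the highest belinostat library in 22, and among 16 genes of glycolytic enzymes in 13. The share over all genes in which it was the highest was not computed. ALDOC, a form of aldolase, was at 117, 88.1, 92.3 and 98.6 in unstimulated cells, 113, 104, 94.1 and 109.7 with vehicle, 303, 134, 91.7 and 141 with belinostat and 111, 125, 119 and 108 with GSK-J4. Replicate 17 was thus more than 2 times any other library for ALDOC. The log2 fold change of ALDOC against unstimulated cells was 0.76 (SE 0.26, adjusted p = 0.034 by DESeq2), and 0.31 (adjusted p = 0.276 by DESeq2) without replicate 17. That call was also lost without unstimulated replicate 2, 3 or 4, at DESeq2 adjusted p values of 0.0685 to 0.127. GAPDH, which the study used as the reference gene of its quantitative PCR, was at 18841, 13893, 14192 and 13711 in the belinostat libraries and 16372, 15784, 15394 and 15566 with vehicle, so replicate 17 was above and the other 3 below the vehicle range.

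Without replicate 17, 10 members were called against vehicle in place of 6, while over all genes 1127 were called in place of 889. The added genes were ENO1 (log2 fold change -0.23, DESeq2 adjusted p = 0.000228), ALDOA (-0.22, adjusted p = 0.0446), P4HA2 (-0.16, adjusted p = 0.0415) and NDRG1 (0.18, adjusted p = 0.0124). Their values with all libraries were -0.17 (SE 0.06, adjusted p = 0.105 by DESeq2) for ENO1 and -0.15 (SE 0.08, adjusted p = 0.383 by DESeq2) for ALDOA, neither of which passed. The summed level of the 16 glycolytic enzyme genes was 87304 in replicate 17 and 75527 to 76772 in the other 3, beside 82267 to 86821 with vehicle, 77616 to 89947 in unstimulated cells and 80258 to 88004 with GSK-J4.

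**Figure D3:**
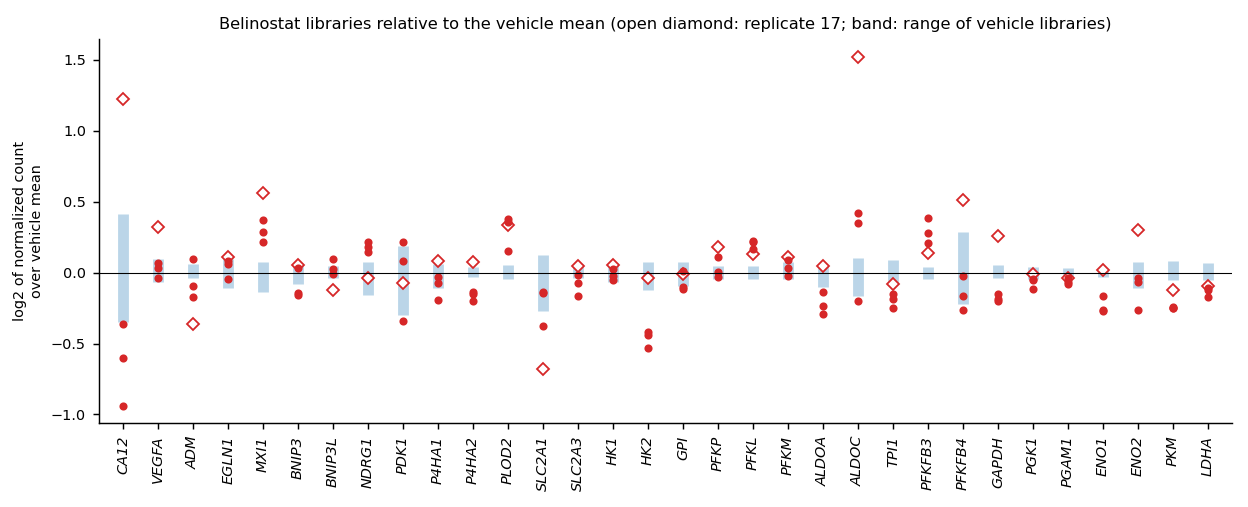
Log2 ratio of each belinostat library to the vehicle mean (y axis) for the 32 members with a mean of at least 100 (x axis), with replicate 17 as an open diamond and the range of the vehicle libraries as a blue band. Replicate 17 was the highest of the 4 for 22 members, among them CA12 and ALDOC.

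Some markers of cell type also differed between belinostat and vehicle. Of the 6 fibroblast markers 1 was called, COL1A1, which was at 68876, 90359.7, 89166 and 92349.8 with belinostat and 105517, 107064, 104832 and 100116 with vehicle. COL1A1 fell by 0.29 (SE 0.08, adjusted p = 0.0089 by DESeq2), while edgeR called 0 of the 6. The summed level of the list was 275211 to 317204 with belinostat, replicate 17 being the lowest, and 319884 to 339540 with vehicle. The 6 markers did not move together. In belinostat replicates 18 to 20 LUM and PDGFRB were above all vehicle libraries, and VIM was below them. In replicate 17 LUM and PDGFRB were below all vehicle libraries, and VIM was above them. COL1A2 and COL3A1 overlapped vehicle. Of the 5 epithelial markers KRT8 was called at 0.36 (SE 0.08, adjusted p = 0.000249 by DESeq2), the summed list was 422 to 518 with belinostat and 355 to 388 with vehicle, and EPCAM was under 6 in every library. The 5 immune markers summed to 94.0 to 255 with belinostat and 82.0 to 192 with vehicle, and the 4 endothelial markers to 21.8 to 30.2 and 19.6 to 29.5. The part of these markers in the changes of the members was not tested.

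GSK-J4 gave no call among the members against vehicle. In DESeq2 0 of 32 members tested passed, 3 had an unadjusted p under 0.05 (VEGFA, PDK1 and ENO2), and edgeR called 0. Of all 13197 tested genes 1.92% were called, and of genes with a mean of at least 1000 it was 3.38%. In a fit of these 2 groups alone 2 members were called, CA12 and VEGFA. VEGFA, the main growth factor of blood vessels, had an adjusted p of 0.000159 by DESeq2 in that fit. Its level was 1089.5, 1293, 1391 and 1264 in unstimulated cells, 1347, 1330.0, 1298 and 1448 with vehicle, 1694, 1388, 1319 and 1421 with belinostat and 1613, 1628, 1558 and 1709.5 with GSK-J4. The GSK-J4 libraries were above all vehicle and all unstimulated libraries. Against vehicle the log2 fold change of VEGFA was 0.26 (SE 0.08, adjusted p = 0.0595 by DESeq2), with a 95% interval of 0.10 to 0.42. PDK1, a kinase that blocks pyruvate dehydrogenase, was at 152 to 175 with GSK-J4 and 108 to 151 with vehicle, and its log2 fold change was 0.29 (SE 0.14, adjusted p = 0.47 by DESeq2). For 28 members the 95% interval of the GSK-J4 change lay within 0.5 on the log2 scale in either direction.

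Against unstimulated cells, GSK-J4 gave 6 calls among 34 members tested, where 5.55% of all 16747 tested genes were called and 8.97% of those with a mean of at least 1000. CA12, VEGFA and P4HA2 were higher, and NDRG1, PFKP and PFKL were lower. The log2 fold change of VEGFA was 0.37 (SE 0.08, adjusted p = 0.0004 by DESeq2), that of P4HA2 0.30 (SE 0.06, adjusted p = 0.000106 by DESeq2) and that of PFKL -0.17 (SE 0.04, adjusted p = 0.00309 by DESeq2). P4HA2 was at 1591, 1536, 1399 and 1455 in unstimulated cells, 1738, 1689, 1774 and 1692 with vehicle, 1814, 1502, 1556 and 1567 with belinostat and 1921, 1787, 1897 and 1755 with GSK-J4. All vehicle and all GSK-J4 libraries of P4HA2 were above all unstimulated ones. By edgeR 6 members were called as well. Of the 6 fibroblast markers COL1A2, LUM and COL3A1 were called, all higher with GSK-J4 than in unstimulated cells, and edgeR also called 3. Their part in the member values was not tested.

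Belinostat against unstimulated cells gave 8 calls among 33 members tested, where 10.3% of all tested genes and 16% of those with a mean of at least 1000 were called. CA12, MXI1, PLOD2, PFKFB3 and ALDOC were higher, and SLC2A1, PFKP and PKM were lower. SLC2A1, at chr1:42925353-42958893, encodes GLUT1, the widespread glucose transporter. It was at 6656, 7334, 6609 and 7184 in unstimulated cells, 6824, 6597, 6449 and 5189 with vehicle, 3919, 5663, 5709 and 4832 with belinostat and 6407, 7619.9, 6579 and 6299 with GSK-J4. The belinostat libraries of SLC2A1 were below all unstimulated and all GSK-J4 libraries but overlapped vehicle, where replicate 16 was low. The log2 fold change was -0.47 (SE 0.11, adjusted p = 0.000582 by DESeq2) against unstimulated cells and -0.32 (SE 0.11, adjusted p = 0.0565 by DESeq2) against vehicle. Without belinostat replicate 17, the lowest library, these were -0.36 (adjusted p = 0.0019 by DESeq2) and -0.21 (adjusted p = 0.155 by DESeq2). The other transporter gene, SLC2A3, was at 781 to 937 and its log2 fold change in the 6 comparisons lay between -0.10 and 0.07, with no call. Among the cell type markers LUM, KRT8 and CD14 were called as higher with belinostat than in unstimulated cells. By edgeR 1 gene was called in each of their lists. The part of these markers in the member values was not tested.

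The compounds were then set against each other, at 250 nM for belinostat and 10 µM for GSK-J4, so that agent and dose cannot be told apart. Of 34 members tested 12 were called, where 12.2% of all 14717 tested genes were called, and 11 of the 24 members with a mean of at least 1000 were called beside 20.8% of such genes. MXI1, PLOD2, PFKFB3, PFKL and PFKM were higher with belinostat, and ADM, P4HA2, SLC2A1, HK2, ALDOA, ENO1 and PKM were higher with GSK-J4. By edgeR 8 of the members were called. Leaving out GSK-J4 replicate 22 left 7, and leaving out belinostat replicate 17 gave 15, with CA12, VEGFA, NDRG1, GAPDH and ENO2 added and MXI1 and PFKM lost. The counts over all genes moved too. Of all tested genes edgeR called 1631 of 14415. DESeq2 called 1314 of 15131 without GSK-J4 replicate 22 and 2136 of 14628 without belinostat replicate 17. The calls of ADM, PLOD2, SLC2A1, PFKL and PFKFB3 held in 13 of 13 alternative fits each. Of the 6 fibroblast markers COL1A1, COL1A2 and COL3A1 were called, all lower with belinostat, and edgeR also called 3. The summed fibroblast list was 275211 to 317204 with belinostat and 360547 to 380115 with GSK-J4. KRT8 of the epithelial list was called as higher with belinostat. The part of these markers in the member values was not tested.

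With all libraries, the largest log2 differences between the compounds among called members were SLC2A1 at -0.42 (SE 0.11, adjusted p = 0.0021 by DESeq2), PLOD2 at 0.41 (SE 0.07, adjusted p = 2.95e-08 by DESeq2) for belinostat over GSK-J4, and PFKFB3 at 0.35 (SE 0.06, adjusted p = 1.32e-08 by DESeq2). PFKL had 0.26 (SE 0.04, adjusted p = 2.07e-07 by DESeq2). The rank of SLC2A1 rested on belinostat replicate 17. Without that library SLC2A1 was at -0.32 (adjusted p = 0.00654 by DESeq2), behind CA12 at -1.34, HK2 at -0.42, PLOD2 at 0.40, PFKFB3 at 0.39 and ENO2 at -0.35. ADM, which encodes the vessel-widening peptide adrenomedullin, was at 3934, 3782, 3800.4 and 3827 in unstimulated cells, 3716, 3676, 3924 and 3751 with vehicle, 2931, 3349, 4027 and 3527 with belinostat and 3793, 4193, 4363 and 4319 with GSK-J4. The belinostat libraries of ADM overlapped all other groups, and replicate 17 was the lowest library of all. The log2 fold change of ADM for belinostat over GSK-J4 was -0.27 (SE 0.08, adjusted p = 0.00493 by DESeq2).

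Among glycolytic enzymes, ENO1, ALDOA and PFKM were called in the comparison of the compounds and in none of the other 5. ENO1, the main enolase, was at 9647, 9215, 8335 and 8705 in unstimulated cells, 9035, 8886, 8714 and 9046 with vehicle, 9033, 7418, 7968 and 7395 with belinostat and 9286, 9135, 9403 and 8634 with GSK-J4. In the belinostat group 3 libraries of ENO1 were below all others, and replicate 17 was within the range of the other groups. Its log2 fold change for belinostat over GSK-J4 was -0.20 (SE 0.06, adjusted p = 0.0196 by DESeq2). ALDOA, the main aldolase, was at 7057, 6708, 5655 and 6402 in unstimulated cells, 6615, 6475, 6031 and 6722 with vehicle, 6682, 5866, 5279 and 5476 with belinostat and 6992, 7483, 6863 and 6169 with GSK-J4. The groups of ALDOA overlapped, and its log2 fold change was -0.24 (SE 0.08, adjusted p = 0.0347 by DESeq2). PFKM, the muscle form of phosphofructokinase, was at 1999, 2016, 1894 and 2001 in unstimulated cells, 1898, 1958, 1917 and 2061 with vehicle, 2118, 1931, 2004 and 2085 with belinostat and 1978, 1749.9, 1837 and 1849 with GSK-J4. Its log2 fold change was 0.14 (SE 0.05, adjusted p = 0.0472 by DESeq2), and 4 of 13 alternative fits kept the call. Single libraries ended several of these calls. For ENO1 these were belinostat replicates 18 and 20 and GSK-J4 replicates 21, 22 and 23, with DESeq2 adjusted p values of 0.0635 to 0.106. For ALDOA they were belinostat replicates 18, 19 and 20 and GSK-J4 replicates 21, 22 and 23, with 0.0736 to 0.172, and for PFKM all but belinostat replicate 18 and GSK-J4 replicate 21, with 0.0781 to 0.211. For P4HA2 they were belinostat replicates 18, 19 and 20 and GSK-J4 replicates 21 and 23, with 0.0837 to 0.11. For MXI1 they were belinostat replicate 17 and GSK-J4 replicates 22 and 24, with 0.0778 to 0.102, and for HK2 GSK-J4 replicate 22, with 0.0502. The call of PKM was lost only by edgeR (adjusted p = 0.057).

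The 3 genes of phosphofructokinase had different calls. PFKP was lower in each group of pulsed cells than in unstimulated cells. PFKL was higher with belinostat than with vehicle and lower with GSK-J4 than in unstimulated cells. PFKM was called between the compounds alone. The difference between these patterns was not tested. Counts per length of transcript allow the forms to be set beside one another, and for this the mean of each group was divided by the length in kilobases of the canonical GENCODE transcript. In vehicle-treated cells the level per kb was 1641 ± 51.5 for PFKP, 1316 ± 40.8 for PFKL and 634 ± 23.5 for PFKM. The table does not show which transcripts of a gene were present, so levels per kb are approximate.

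Along the pathway the level per kb in vehicle-treated cells was highest for GAPDH, at 12279.5 ± 332 (SD, n = 4, here and below), followed by PKM at 6972 ± 294, ENO1 at 5008 ± 87.5 and ALDOA at 3939 ± 185. TPI1, triose phosphate isomerase, at 3088 ± 144, and LDHA, which makes lactate from pyruvate, at 2923 ± 98.2, had ranges of mean ± SD that overlapped. PGAM1, phosphoglycerate mutase, stood at 2473 ± 48.8 per kb and PGK1, phosphoglycerate kinase, at 878 ± 21.4. The hexokinase genes HK2 and HK1 were at 630.1 ± 38.8 and 529 ± 20.7 per kb, and GPI, glucose phosphate isomerase, at 485 ± 26.8. ENO2 and ALDOC, the forms best known from nerve tissue, were at 160.0 ± 8.93 and 65.5 ± 5.2 per kb, far below ENO1 and ALDOA. SLC2A1 was at 1851 ± 217 per kb and SLC2A3 at 228 ± 6.62. PDK1 was the lowest of the genes drawn, at 9.44 ± 1.31 per kb. That rank depends on its canonical transcript of 14072 bases. In counts not divided by length, its vehicle mean of 133 was above those of ALDOC (105) and PFKFB4 (107). No test was run between genes.

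**Figure D4:**
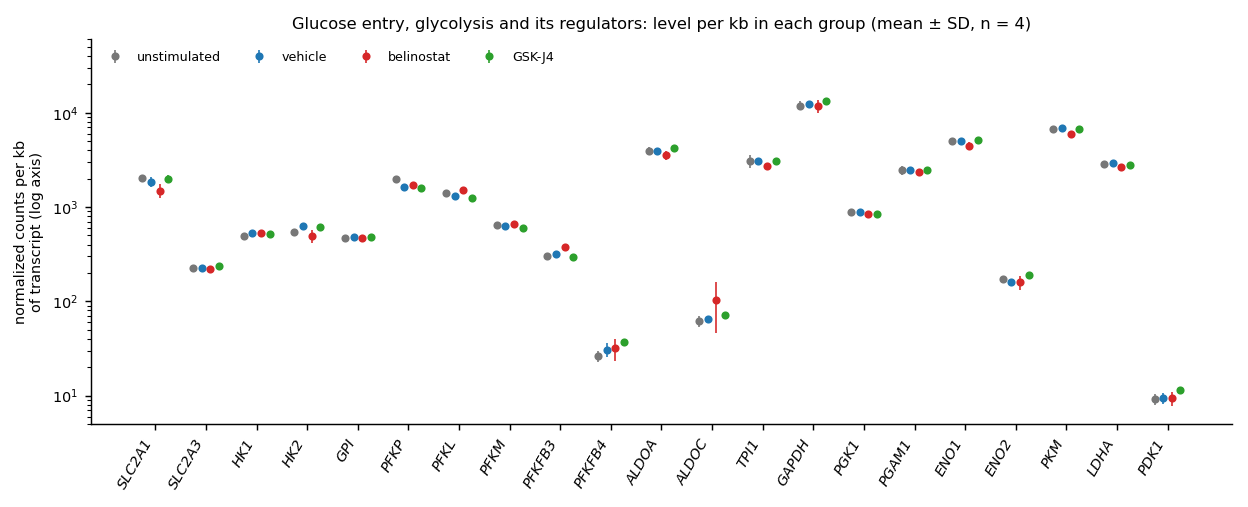
Normalized counts per kb of the canonical transcript (log y axis), mean with SD of 4 libraries in each group, for genes of glucose entry, glycolysis and pyruvate handling on the x axis in the order of the pathway. In each group ENO1 lay far above ENO2 and ALDOA far above ALDOC.

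Many members showed no call in any comparison. These were EGLN1, the main oxygen-sensing hydroxylase, BNIP3 and BNIP3L, which mark mitochondria for removal, P4HA1, PDK1, SLC2A3, PFKFB4, and the enzyme genes HK1, GPI, TPI1, GAPDH, PGK1, PGAM1, ENO2 and LDHA. EGLN3 and ANKRD37 had none where they were tested. BNIP3L was at 3471 to 4036 in the 16 libraries, and its log2 fold changes in the 6 comparisons ran from -0.01 to 0.01. EGLN1 was at 1057 to 1228, with log2 fold changes from -0.03 to 0.09. PGK1, HK1 and GPI had log2 fold changes between -0.06 and 0.09 in all 6 comparisons. LDHA was at 6007 ± 143 with belinostat and 6549.8 ± 220.2 with vehicle, and the libraries of these 2 groups did not overlap although the log2 fold change of -0.12 (SE 0.05, adjusted p = 0.0829 by DESeq2) missed the threshold.

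Several of the most abundant members have near-identical processed pseudogenes elsewhere in the genome, among them GAPDH, ENO1, PGK1, LDHA, TPI1, PGAM1, ALDOA and BNIP3, and SLC2A3 has the near-identical SLC2A14. How the estimation divided shared reads between such copies is uncertain, and values for these genes carry that limit. In unstimulated cells replicate 1 was the highest library for 11 of the 16 glycolytic enzyme genes and replicate 3 the lowest for 14, and with GSK-J4 replicate 24 was the lowest for 12, so libraries of 1 group differed together in these genes. How often these libraries were highest or lowest over all genes was not computed, so this may not be particular to these genes.

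The wider pathway was read from fixed lists of other genes. The shares of all tested genes called, beside which the counts of these lists stand, were 1.74% (vehicle against unstimulated), 6.26% (belinostat against vehicle), 1.92% (GSK-J4 against vehicle), 10.3% (belinostat against unstimulated), 5.55% (GSK-J4 against unstimulated) and 12.2% (between the compounds). In the HIF pathway list (13 genes), HIF1A was called in vehicle against unstimulated cells, 1 of 13 tested, and the median log2 fold change of the list was -0.01 beside -0.00 for all tested genes. HIF1A, the alpha subunit that most cells stabilise in low oxygen, was at 7207, 7071, 7036 and 7316 in unstimulated cells, 8464, 8469, 8658 and 8455 with vehicle, 8874, 9093, 8905 and 8336 with belinostat and 8237, 8716, 7868 and 8215 with GSK-J4. The unstimulated libraries were below all 12 others. The HIF1A transcript rose by a log2 fold change of 0.25 (SE 0.04, adjusted p = 6.92e-09 by DESeq2) with vehicle and was higher than in unstimulated cells by 0.30 (SE 0.04, adjusted p = 1.36e-13 by DESeq2) with belinostat and 0.21 (SE 0.04, adjusted p = 2.52e-06 by DESeq2) with GSK-J4. The level of the protein, on which its activity depends, was not measured here.

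EPAS1, the gene of another alpha subunit, was called with GSK-J4. It was at 25616, 27378, 27602 and 27710.3 in unstimulated cells, 28202, 29136, 28749 and 25372 with vehicle, 21762, 26218, 25949 and 25323 with belinostat and 32682, 33119, 35890.3 and 32805 with GSK-J4. The GSK-J4 libraries were above all others. EPAS1 rose by 0.27 (SE 0.06, adjusted p = 0.00216 by DESeq2) against vehicle, and edgeR did not make that call (adjusted p = 0.0696). For belinostat over GSK-J4 its log2 fold change was -0.44 (SE 0.06, adjusted p = 1.52e-10 by DESeq2). The fibroblast markers COL1A2 and COL3A1 were higher with GSK-J4 than with vehicle too, at 0.22 (SE 0.04, adjusted p = 0.000254 by DESeq2) and 0.22 (SE 0.06, adjusted p = 0.0168 by DESeq2), with edgeR calling 0 of the 6 markers. The summed list was 360547 to 380115 with GSK-J4 and 319884 to 339540 with vehicle, the epithelial list 363 to 406 and 355 to 388, and the immune list 84.0 to 158 and 82.0 to 192. The part of this in the EPAS1 value was not tested. ARNT2, a partner of the alpha subunits, was lower with belinostat than in unstimulated cells, at -0.33 (SE 0.08, adjusted p = 0.00173 by DESeq2). Against vehicle, belinostat gave 0 calls in the HIF pathway list by DESeq2 and 0 by edgeR, with 2 genes at an unadjusted p under 0.05 and a median of -0.06. In the other 3 comparisons 2 of 12 (belinostat against unstimulated), 2 of 13 (GSK-J4 against unstimulated) and 1 of 12 (between the compounds) were called, beside 10.3%, 5.55% and 12.2% of all tested genes.

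Among 20 other hypoxia-induced genes, AK4 and STC1 were called with vehicle against unstimulated cells, 2 of 20 tested, with a median of 0.04 over the list. AK4, a mitochondrial adenylate kinase, was at 14.5, 21, 29.3 and 29.3 in unstimulated cells, 116, 96.8, 69.9 and 79.3 with vehicle, 69.7, 95.2, 80.9 and 79.9 with belinostat and 138, 115, 95.5 and 105 with GSK-J4. Its lowest pulsed library was more than 2 times its highest unstimulated one. AK4 rose by 1.94 (SE 0.23, adjusted p = 1.18e-13 by DESeq2) with vehicle, and was higher than in unstimulated cells by 1.78 (SE 0.24, adjusted p = 1.06e-11 by DESeq2) with belinostat and 2.26 (SE 0.23, adjusted p = 1.76e-19 by DESeq2) with GSK-J4. STC1, a secreted glycoprotein of calcium and phosphate balance, was at 335, 284, 349.8 and 268 in unstimulated cells, 623, 445, 580.3 and 783 with vehicle, 729, 432, 476 and 429 with belinostat and 546, 617, 464 and 477 with GSK-J4, with all unstimulated libraries below all others. STC1 rose by 0.97 (SE 0.18, adjusted p = 1.97e-05 by DESeq2) with vehicle. These calls for HIF1A, AK4 and STC1 held in 13 of 13 alternative fits each. The other 18 genes of the list, among them the widely used low-oxygen targets KDM3A, ANGPTL4, LOX and DDIT4, were not called in that comparison.

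In the same list belinostat against vehicle gave 2 calls. PPP1R3C, which directs a phosphatase to glycogen, was at 3055, 3291, 3279 and 2814 with vehicle and 3856, 4354, 4066 and 4557 with belinostat, without overlap, and rose by 0.44 (SE 0.07, adjusted p = 2.16e-08 by DESeq2). STC2, a relative of STC1, was at 6942, 6335, 6074 and 6733 with vehicle and 6665, 3684, 4311 and 4172 with belinostat. STC2 had a log2 fold change of -0.47 (SE 0.14, adjusted p = 0.0188 by DESeq2), its replicate 17 lay in the vehicle range, and edgeR did not make the call (adjusted p = 0.0732). Leaving out vehicle replicate 13 or 16 or belinostat replicate 18, 19 or 20 also ended it, at DESeq2 adjusted p values of 0.068 to 0.121, and without replicate 17 the value was -0.68 (2.69e-10). GSK-J4 against vehicle gave 0 calls of 20 by DESeq2 and 0 by edgeR, with 1 gene at an unadjusted p under 0.05. Against unstimulated cells belinostat gave 4 calls (AK4, PPP1R3C, LOXL2 and STC1) and GSK-J4 gave 3 (AK4, STC1 and STC2), all of them higher. The STC2 call with GSK-J4 was kept in 6 of 13 alternative fits, with an edgeR adjusted p of 0.0838, and leaving out any unstimulated library or GSK-J4 replicate 22 or 23 ended it, at DESeq2 adjusted p values of 0.0627 to 0.245. Between the compounds PPP1R3C was higher with belinostat at 0.40 (SE 0.07, adjusted p = 1.63e-07 by DESeq2) and STC2 higher with GSK-J4 at -0.74 (SE 0.14, adjusted p = 6.12e-06 by DESeq2).

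**Figure D5:**
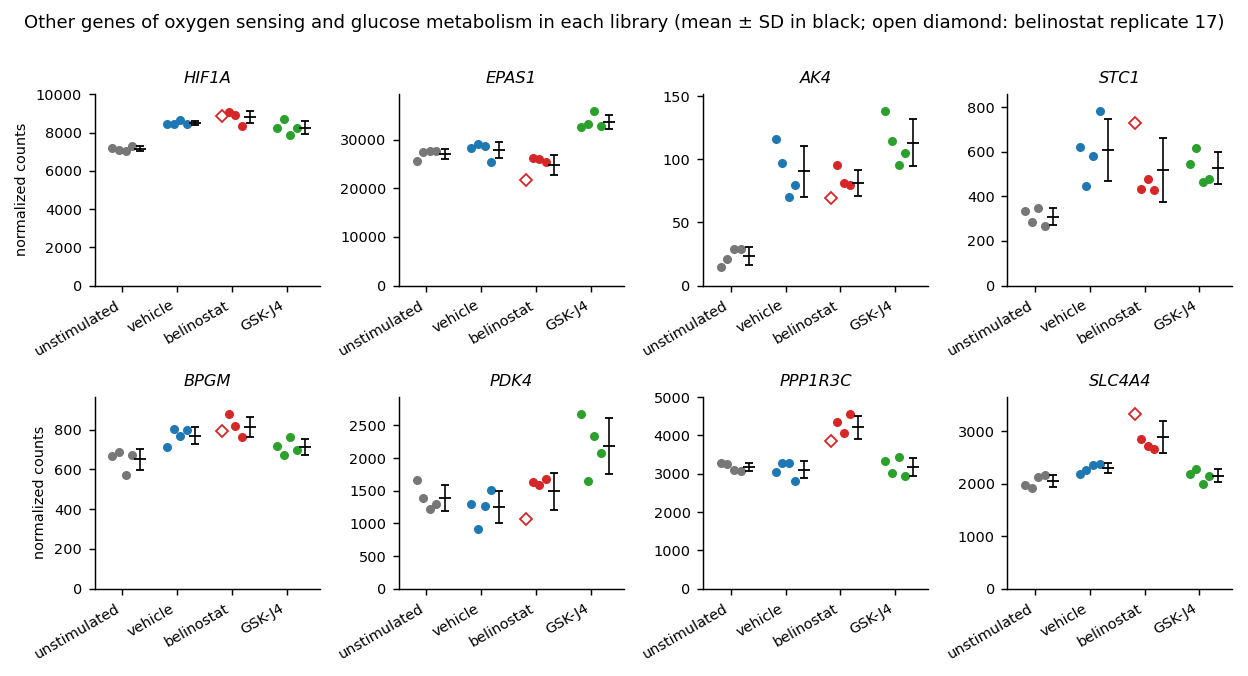
Normalized counts of 8 genes outside the member list in each library, by group on the x axis, with the group mean and SD in black and belinostat replicate 17 as an open diamond. HIF1A, AK4 and STC1 were higher in all 12 libraries of pulsed cells than in the 4 unstimulated ones, and EPAS1 was highest in the 4 GSK-J4 libraries.

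The list of pyruvate and lactate handling (15 genes) gave 0 calls for vehicle against unstimulated cells by DESeq2 and 0 by edgeR, with 0 genes at an unadjusted p under 0.05 and a median of 0.01. PDK4, another kinase that shuts down pyruvate dehydrogenase and is known from fasting and fat oxidation, was the exception with GSK-J4. It was at 1669.5, 1382, 1217 and 1303 in unstimulated cells, 1297, 918, 1268 and 1506 with vehicle, 1067, 1639.9, 1585 and 1672 with belinostat and 2672, 1649.5, 2339.7 and 2078 with GSK-J4. PDK4 rose by 0.81 (SE 0.17, adjusted p = 0.000314 by DESeq2) against vehicle, the only call of 14 tested, and held in 13 of 13 alternative fits. The lactate transporter genes SLC16A1 and SLC16A3 were not called in any comparison. Against unstimulated cells 0 of 14 were called with belinostat by DESeq2 and 0 by edgeR, with 2 genes at an unadjusted p under 0.05, and 2 of 15 were called with GSK-J4.

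Of 17 other glycolytic and gluconeogenic enzymes, 8 were tested with vehicle and 1 was called. BPGM, which diverts a glycolytic intermediate in red cells, had a log2 fold change of 0.25 (SE 0.07, adjusted p = 0.0447 by DESeq2) against unstimulated cells. That call was lost by edgeR (adjusted p = 0.0932) and on leaving out any of the unstimulated libraries 1, 3 and 4 and the vehicle libraries 14, 15 and 16 (DESeq2 adjusted p of 0.0652 to 0.206). It was higher with belinostat than in unstimulated cells as well, at 0.32 (SE 0.07, adjusted p = 0.000342 by DESeq2). The testis form PGK2 and the gluconeogenic FBP1 were at 0 in every library.

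Of 16 other carbonic anhydrases and acid-base transporters 6 were tested in each comparison, and CA4, CA5A and CA10 were at 0 in every library. SLC4A4, which carries sodium with bicarbonate, was at 1979, 1927, 2138 and 2163 in unstimulated cells, 2179, 2258, 2354 and 2384 with vehicle, 3326, 2861, 2723 and 2662 with belinostat and 2183, 2287, 1986 and 2147 with GSK-J4. The belinostat libraries were above all others, and SLC4A4 rose by 0.34 (SE 0.07, adjusted p = 0.000125 by DESeq2) against vehicle and by 0.26 (adjusted p = 0.000298 by DESeq2) without replicate 17. In vehicle against unstimulated cells the list had 0 calls by DESeq2 and 0 by edgeR, with 1 gene at an unadjusted p under 0.05, so that CA12 alone of the carbonic anhydrase genes listed was called there. In the other comparisons 1 (belinostat against vehicle), 0 (GSK-J4 against vehicle), 2 (belinostat against unstimulated), 0 (GSK-J4 against unstimulated) and 3 (between the compounds) of the 6 were called. For the counts of 0, edgeR also gave 0, and 1 and 2 genes had an unadjusted p under 0.05.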

How the data were processed

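Estimated counts per gene symbol, made by the authors and deposited as a single table of 16 libraries, were used; the submitters' processing notes name FastQC 0.11.9, MultiQC 1.14, kallisto 0.48.0 and hg38. Libraries were made with a NEBNext Ultra II kit and sequenced on a NextSeq500 without molecular identifiers, so precision covers counting and sample spread only. Counts with decimals (28.0% of values) were rounded to whole numbers. DESeq2 1.42.0 (R 4.3.3) was fitted to all 16 libraries by group, with default independent filtering, after a check on simulated data. Groups came from the sample titles. Replicates of a group correlated at 0.9954 to 0.9984. Named genes were all members, with every library's value for those called in any of 6 comparisons and for CA9, and genes of the fixed lists. Members and lists were chosen with earlier results of these data known. Genes given no adjusted p were counted as not tested. Alternatives were edgeR 4.0.16, TMM or total-count size factors, a minimum of 10 counts in 4 libraries, the compared groups alone, and leaving out each library in turn. Positions came from GENCODE release 44, and promoter windows from RefSeq.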

Additional observations from a re-analysis of the deposited data

Results flagged for a closer look

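A sample far from the other 3 of its group was seen in 17 of 198 tests over 50 genes, by Dixon's ratio at the 95% level, where chance gives about 1 in 20. Of these, 7 were belinostat replicate 17. Among the members, replicate 17 was apart for CA12 (619 normalized counts), GAPDH (18841) and PKM (14738). Outside the members it was apart for ARNT2 (1254), LOXL2 (5026), PDK4 (1067) and STC1 (729).

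In the unstimulated group, replicate 1 was apart for ANKRD37 (22.2), ARNT2 (1806) and EPAS1 (25616), and replicate 3 for PFKM (1894) and PFKFB2 (404). In the GSK-J4 group, replicate 24 was apart for CA9 (1.05) and PGK1 (3923), and replicate 23 for BNIP3 (1042) and EPAS1 (35890.3). The other GSK-J4 libraries were at 0 for CA9, where any single count is flagged, so the chance rate does not hold for that flag. In the vehicle group, replicate 15 was apart for HIF1A (8658).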

How the results depend on the processing

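Alternatives were tabulated for 99 pairs of a gene and a comparison, namely members called in any fit of that comparison, list genes called there with all libraries, and CA12. Of their log2 fold changes under single alternatives, 1154 kept their direction and their side of the threshold, 93 lost the call, 39 gained it and 1 turned its sign. That value was CA12 with belinostat against vehicle, at -0.61 without belinostat replicate 17, and over the libraries left out its log2 fold change ran from -0.61 to 0.33. Called members with vehicle against unstimulated cells numbered 3, and 1 by edgeR, 5 with the compared groups alone, and 1 to 4 with a library left out. They numbered 6 to 10 for belinostat against vehicle with a library left out, the 10 being without belinostat replicate 17, and 7 to 15 for belinostat against GSK-J4, the 7 being without GSK-J4 replicate 22. For GSK-J4 against vehicle there were 0 called members with each library left out and 2 with the compared groups alone. For belinostat and GSK-J4 against unstimulated cells the ranges were 7 to 11 and 5 to 7. Over all genes, vehicle against unstimulated cells gave 282 calls, 166 by edgeR and 180 to 295 with a library left out, and GSK-J4 against vehicle gave 253, 91 by edgeR, 542 with the compared groups alone and 132 to 193 with a library left out. Belinostat against unstimulated cells gave 1461 calls and 876 with the compared groups alone. With a library left out, the counts over all genes were 664 to 1127 for belinostat against vehicle and 1314 to 2136 for belinostat against GSK-J4. They were 989 to 1836 for belinostat and 651 to 980 for GSK-J4 against unstimulated cells. The cause of these shifts was not tested. No paired analysis was possible because the groups share no replicate numbers. Counts near 0, as for CA9 and EGLN3, limit what could be detected.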

Other observations

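Other genes of the fixed lists, chosen here after their values were seen, also stood higher in belinostat replicate 17 than in the other belinostat libraries. DDIT4, which restrains mTOR under stress, was at 1348 normalized counts in replicate 17 and at 498 ± 72.3 (SD, n = 3) in the others. PCK2, the mitochondrial form of an enzyme of gluconeogenesis, was at 520.3 and 180.0 ± 18.8 (SD, n = 3).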
